A study of Mus musculus with 24 samples.

Results

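The 8 genes described here are the survival genes Bcl2, Bcl2l1, Bcl2l2, Mcl1 and Bcl2a1b of the Bcl2 family and Xiap, Birc2 and Birc3 of the inhibitor of apoptosis (IAP) family. They were taken by symbol from a table of 25239 genes, and 7 of the 8 passed the filter on low values (at least 1 TPM, a transcript's share of its library scaled for length, in at least 3 of the 24 libraries). The remaining gene, Bcl2a1b, was listed at 0 in all 24 libraries.

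RNA was sequenced from 6 cell lines, each grown from an individual small cell lung tumor of a mouse. In all of them Rb1 and Rbl2 had been floxed and deleted by adenoviral Cre under the CMV promoter, Trp53 was held off by the XTR allele, and Rosa26 carried FlpO-ER, a recombinase that 4-hydroxytamoxifen activates to switch Trp53 back on. The 3 Type D lines (4711-1, 4711-18 and 4716-11) were sorted by the study as lines that die after p53 restoration, and the 3 Type V lines (4711-11, 4716-10 and 4716-14) as lines that stay viable. Each line gave 1 library for each of 4 treatments of 72 h, which were vehicle (Control), cyclosporin A (Control + CsA), p53 restoration (Restored) and both (Restored + CsA). The 8 groups of this report are thus 2 types by 4 treatments, with 3 lines in each, and they share the deletions of Rb1 and Rbl2. CsA binds cyclophilins and was used by the study to probe the form of death in Type D lines. The study detected no apoptosis markers in lines of either type and described the Type D death as necrosis. In its hands CsA protected Type D lines from this death, while overexpressed Bcl2 did not block it.

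Cells commit to mitochondrial apoptosis when the effectors Bax and Bak1 perforate the outer mitochondrial membrane. Bcl2, Bcl2l1 (the gene of Bcl-xL), Bcl2l2 (the gene of Bcl-w), Mcl1 and Bcl2a1b encode proteins that hold these effectors and their BH3-only activators in check. Xiap binds and inhibits caspases further downstream, whereas Birc2 and Birc3 (the genes of cIAP1 and cIAP2) are ubiquitin ligases of tumor necrosis factor signaling that restrain cell death and noncanonical NF-kB.

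Trp53 was 10.7 to 14.8 TPM in the 6 Control libraries and 181 to 253 TPM in the 6 Restored libraries, so each of these went with its label of p53 state. Under CsA the log2 differences of Trp53, p53 on minus off, were 4.0 in Type D and 3.79 in Type V. Trp53 does not check the labels of CsA, line or type. TPM keeps no record of sequencing depth, which is therefore unknown. Of the neuroendocrine markers, Chga was listed at 0 throughout, Calca and Neurod1 stayed at or below 0.105 TPM, Dll3 at or below 0.148 TPM and Syp at or below 1.41 TPM, whereas Ncam1 was at 4.46 to 27.3 TPM. Uchl1 was at 0.168 to 1.88 TPM in the Type D Control lines and at 18.9 to 40.9 TPM in the Type V Control lines. Insm1 overlapped between them (0 to 3.07 and 1.59 to 18.1 TPM) and reached 49.6 TPM in Type V Restored. The summed level of 9 immune markers was 7.31 to 57.5 TPM in Type D and 8.46 to 32.3 TPM in Type V, most of it Cd68, while Ptprc stayed at or below 0.154 TPM and Cd3e was listed at 0. Summed fibroblast markers were 75.3 to 563 TPM in Type V and 0.304 to 1.93 TPM in Type D, summed epithelial markers were 490.3 to 1577 and 4425 to 11816 TPM, and the 4 endothelial markers summed to at most 0.922 TPM. Not every marker contributed to these sums, since Epcam stayed at or below 4.57 TPM, Pdgfra at or below 3.37 TPM and Lum at or below 0.844 TPM. The part of these markers in the results was not tested. In bulk RNA, fewer cells of a kind and less RNA per cell cannot be told apart.

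The promoters of Bcl2l1, Bcl2l2 and Mcl1, the members that passed the test after restoration in the fit without a block, are shown so that their makeup can be set beside the values that follow. RefSeq (GRCm38.p6) gave 13 start-site windows for the 8 genes, and the 250 bases before each start were searched on both strands for the p53 half-site and the NF-kB site (each by its consensus), the TATA box by TATAAA, the site of the factor NF-Y by CCAAT, the GC box by GGGCGG and the cyclic AMP response element by TGACGTCA, with overlaps between motifs allowed. Capitals mark matches to these motifs. The Bcl2l1 window is chr2:152831729-152831978 (minus strand), the Bcl2l2 stretch chr14:54883175-54883374 (plus strand, ending 51 bases before the start) and the Mcl1 window chr3:95658471-95658720 (plus strand), each printed 5′ to 3′.

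Bcl2l1: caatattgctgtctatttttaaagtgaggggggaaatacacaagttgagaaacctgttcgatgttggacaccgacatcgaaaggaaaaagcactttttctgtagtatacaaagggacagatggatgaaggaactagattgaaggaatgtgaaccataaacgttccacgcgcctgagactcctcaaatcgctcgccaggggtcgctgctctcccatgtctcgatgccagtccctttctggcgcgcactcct

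Bcl2l2: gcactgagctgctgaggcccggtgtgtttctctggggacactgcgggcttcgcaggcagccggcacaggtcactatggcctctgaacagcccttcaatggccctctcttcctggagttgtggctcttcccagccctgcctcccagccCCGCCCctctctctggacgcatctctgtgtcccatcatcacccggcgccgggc

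Mcl1: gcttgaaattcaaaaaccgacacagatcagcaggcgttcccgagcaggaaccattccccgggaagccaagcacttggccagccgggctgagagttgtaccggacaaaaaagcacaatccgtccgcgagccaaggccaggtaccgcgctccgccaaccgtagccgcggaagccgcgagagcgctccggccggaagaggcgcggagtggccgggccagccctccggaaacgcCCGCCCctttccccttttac

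A GC box lay 103 bases before the Bcl2l2 start and 20 bases before the Mcl1 start, and 32.7% of all 32851 promoter windows held one. The Bcl2l1 window shown held none of the motifs. None of the 13 windows of the 8 genes held the p53 half-site, which 7.13% of all windows held. The NF-kB site was found in 1 window, at a second Bcl2l1 start, against 7.25% of all windows. The cyclic AMP response element was found in 1 Birc2 window, against 1.55% of all windows. The Mcl1 and Bcl2l2 windows were 64.4% and 66% G and C, the Bcl2l1 window was 47.6%, and the median over all windows was 52.4%. These matches describe letters, not bound sites.

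Because TPM is scaled by transcript length, levels can be ranked between genes. In the 6 Control libraries Mcl1 was highest, with a lowest, median and highest level of 152, 166 and 189 TPM. It was followed by Bcl2l1 with a median of 87.8 TPM, Xiap with 53.6, Birc2 with 26.0, Bcl2l2 with 18.7, Birc3 with 15.5 and Bcl2 with 7.14. Only Mcl1 stood clear of its neighbor in this order, since its range did not overlap that of Bcl2l1 (30.9 to 92.9 TPM), and Bcl2 stood clear of Bcl2a1b, listed at 0. All other neighbors overlapped in range, although within lines Birc2 was above Bcl2l2 and Birc3 above Bcl2 in 6 of 6. After restoration the order was Mcl1, Bcl2l1, Xiap, Bcl2l2, Birc2, Birc3 and Bcl2, with Bcl2l2 (median 36.1 TPM) and Birc2 (29.1 TPM) exchanging places; Bcl2l2 was above Birc2 in 3 of 6 lines, so these neighbors were not separated.

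**Figure D1:**
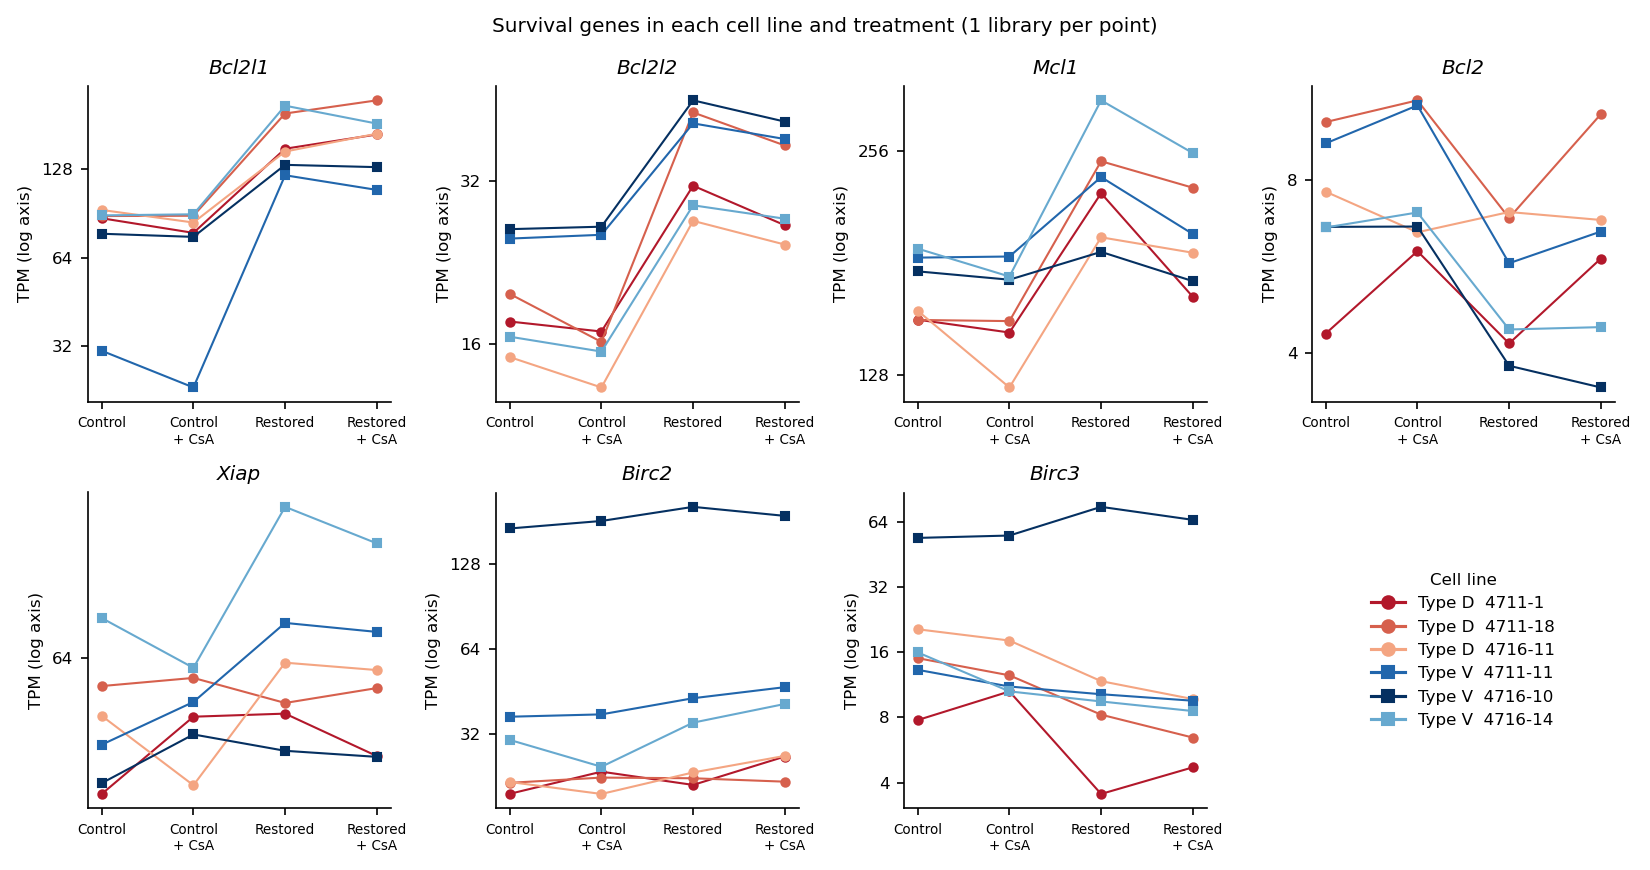
TPM (log axis) of the 7 detected survival genes in each cell line (color and marker, circles for Type D and squares for Type V) under the 4 treatments, with 1 library per point. Bcl2l1, Bcl2l2 and Mcl1 were higher in Restored than in Control in 6 of 6 lines, and line 4716-10 stood above all others in Birc2 and Birc3 under every treatment.

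The first question was how survival genes moved when p53 was switched on. Bcl2l1, Bcl2l2, Mcl1 and, by less, Birc2 were higher in Restored than in Control in all 6 lines, Bcl2 was lower in all 6, and Birc3 was lower in 5 of 6. In the fit over all 8 groups (limma on log2(TPM + 1), which understates the change of low genes), Bcl2l2 and Mcl1 passed the test in Type D (Benjamini-Hochberg adjusted p under 0.05 over 14104 genes) and Bcl2l1 passed in Type V. Of all genes tested, 12.9% passed with Type D lines and 9.95% with Type V lines, and the members' counts of 2 of 7 and 1 of 7 are read against these shares. Only Bcl2l1 in Type V also reached 1 log2, which 6.93% (Type D) and 5.29% (Type V) of all genes did. With the cell line as a block, which uses the shared origin of the 4 libraries of a line, 4 members passed for Type D and 5 for Type V. Under that fit 45.3% and 40.6% of all genes passed. The median log2 difference of the 7 members was 0.13 in Type D and 0.31 in Type V, against 0.075 and 0.047 over all genes.

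Bcl2l1 was at 87.1, 88.6 and 92.9 TPM in the Type D Control lines 4711-1, 4711-18 and 4716-11, and at 149.8, 197 and 146.6 TPM in the same lines with p53 restored. The Type V lines 4711-11, 4716-10 and 4716-14 went from 30.9, 77.1 and 89.0 TPM to 121.8, 132 and 209.7 TPM. The groups did not overlap in either type, and the lowest Control level belonged to 4711-11, which also had the largest rise (3.94-fold, against 1.58-fold to 2.36-fold in the other lines). The log2 difference was 0.86 ± 0.40 (SE) in Type D (adjusted p = 0.185, and 0.00433 with the line block) and 1.31 ± 0.40 in Type V (adjusted p = 0.0415). Without line 4711-11 the Type V difference was 0.997 log2 (adjusted p = 0.0166), which passed but fell just short of 1 log2. Without 4716-10 or 4716-14 it was 1.58 or 1.36 log2 and no longer passed (adjusted p = 0.0802 and 0.0731).

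In the Type D lines Bcl2l2 measured 17.6, 19.8 and 15.2 TPM before and 31.3, 42.8 and 27.01 TPM after restoration. In Type V it went from 25.1, 26.1 and 16.5 to 40.8, 45.0 and 28.9 TPM. Every line rose by a like factor, 1.63-fold to 2.16-fold, and neither type's groups overlapped. The log2 difference was 0.89 ± 0.25 in Type D (adjusted p = 0.0234) and 0.74 ± 0.25 in Type V (adjusted p = 0.0692, and 1.52e-05 with the line block). A readthrough gene, Gm20521, overlaps Bcl2l2 on the same strand in GENCODE M21, so reads of the shared part cannot be assigned with certainty. With any Type D line left out, Bcl2l2 no longer passed in Type D in the fit without the block (adjusted p = 0.137, 0.157 and 0.103).

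Mcl1, whose protein turns over quickly, measured 152, 152 and 156 TPM before and 225, 248 and 196 TPM after restoration in the Type D lines. In Type V it went from 184, 176 and 189 to 236, 187 and 299.97 TPM. The Type D groups were separate, while in Type V the Restored level of 4716-10 lay below the Control level of 4716-14. The log2 difference was 0.53 ± 0.17 in Type D (adjusted p = 0.0403) and 0.37 ± 0.17 in Type V (adjusted p = 0.193, and 0.0238 with the line block). With 4711-1, 4711-18, 4716-11 or the Type V line 4711-11 left out, Mcl1 no longer passed in Type D without the block (adjusted p = 0.211, 0.268, 0.108 and 0.0646).

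Bcl2, the founding member, was low in every library. The Type D lines held 4.32, 10.1 and 7.64 TPM before and 4.15, 6.88 and 7.04 TPM after restoration. In Type V it went from 9.28, 6.64 and 6.62 to 5.73, 3.80 and 4.39 TPM, and these groups did not overlap. The log2 difference was -0.22 ± 0.31 in Type D (adjusted p = 0.764) and -0.59 ± 0.31 in Type V (adjusted p = 0.286, and 0.00253 with the line block).

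The summed TPM of the Bcl2-type genes was 249 to 302 in the Control libraries and 368 to 543 in the Restored libraries, with no overlap. Mcl1 made up a median of 59.9% of the sum in Control and 53.4% in Restored, Bcl2l1 31.2% and 37.6%, Bcl2l2 7.05% and 8.14%, and Bcl2 2.57% and 1.21%. In 4711-11 Bcl2l1 held 12.4% of the sum in Control and 30.1% in Restored, the lowest share of the 6 lines both times.

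**Figure D2:**
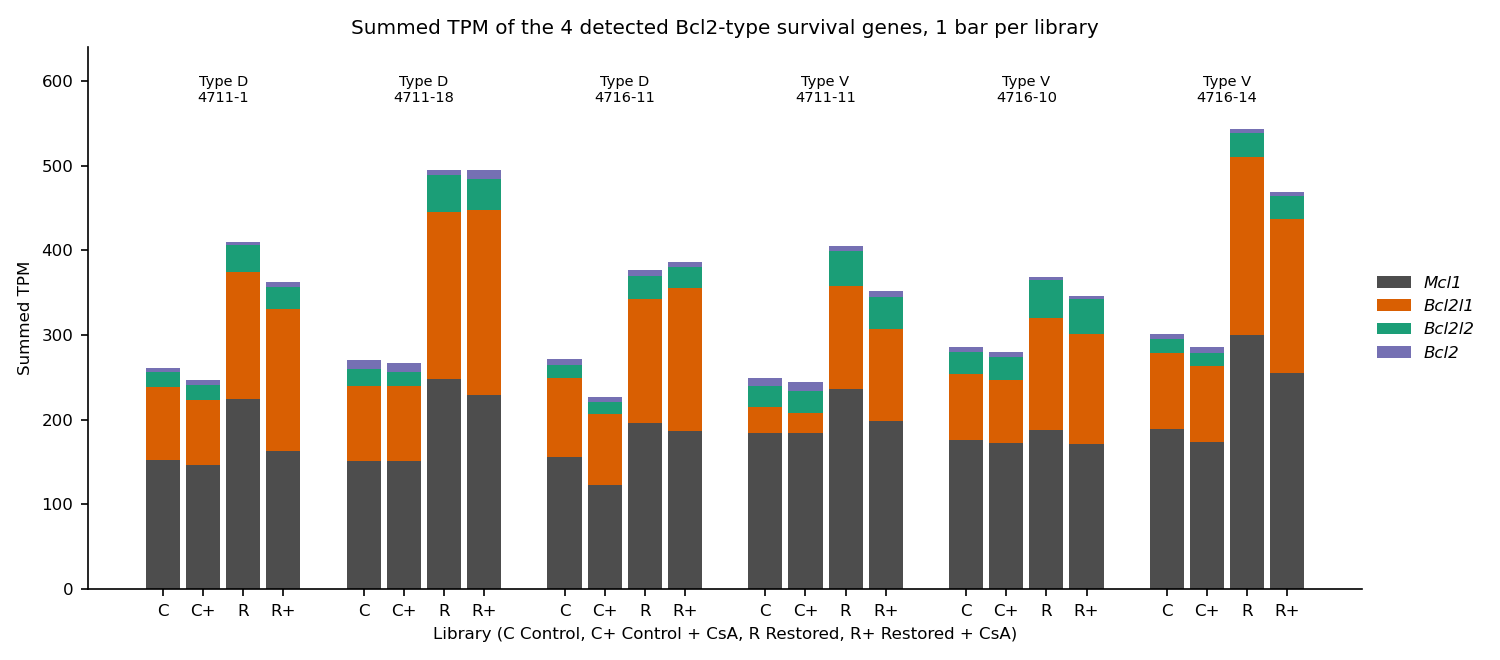
Summed TPM of the 4 detected Bcl2-type survival genes in each library, stacked by gene, with 1 bar per library and the 4 treatments of a line side by side. The Restored bars reach 368 to 543 TPM against 249 to 302 TPM in Control, and Mcl1 and Bcl2l1 make up most of every bar.

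Of the IAP genes, none passed the fit without a block after restoration. Xiap in the Type D lines was at 45.9, 59.7 and 55.5 TPM before restoration and at 55.8, 57.3 and 63.2 TPM after it. In Type V it went from 51.8, 47.1 and 70.5 to 69.6, 51.0 and 92.4 TPM. It was higher in 5 of 6 lines with overlapping groups, and the log2 difference was 0.13 ± 0.21 in Type D (adjusted p = 0.784) and 0.31 ± 0.21 in Type V (adjusted p = 0.445, and 0.0461 with the line block).

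Birc2 in the Type D lines was at 19.6, 21.4 and 21.5 TPM before restoration and at 21.0, 22.2 and 23.3 TPM after it. In Type V it went from 36.7, 171 and 30.4 to 42.7, 204 and 35.0 TPM. It was 1.04-fold to 1.19-fold higher in all 6 lines, and the log2 difference was 0.09 ± 0.74 in Type D, where quantile normalization and median-ratio scaling gave -0.02 and -0.01, and 0.22 ± 0.74 in Type V (adjusted p = 0.992 and 0.938, and 0.568 and 0.127 with the line block).

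Birc3 in the Type D lines was at 7.78, 15.0 and 20.4 TPM before restoration and at 3.55, 8.24 and 11.8 TPM after it. In Type V it went from 13.3, 54.0 and 15.98 to 10.2, 75.1 and 9.48 TPM. It was lower in 5 of 6 lines, to 0.456-fold to 0.768-fold of Control, and 1.39-fold higher in 4716-10. The log2 difference was -0.83 ± 0.82 in Type D (adjusted p = 0.607, and 0.00226 with the line block) and -0.19 ± 0.82 in Type V (adjusted p = 0.958, and 0.453 with the line block). Without 4716-10 the Type V difference was -0.52 log2 and did not pass either.

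**Figure D3:**
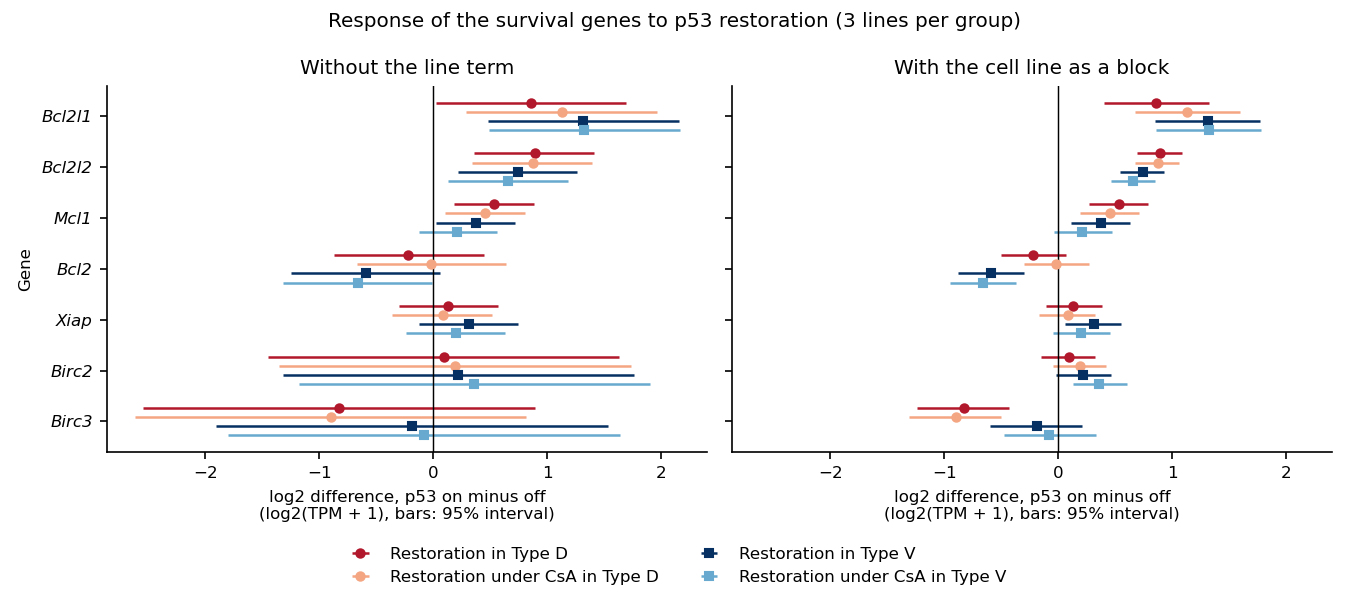
Log2 difference (p53 on minus off, log2(TPM + 1)) of the 7 detected survival genes in each type, without and with CsA, from limma. Points are estimates over 3 lines and bars are 95% intervals, without (left) and with (right) the cell line as a block. Bcl2l1, Bcl2l2 and Mcl1 lie to the right of 0 in all 4 comparisons, and the intervals of Birc2 and Birc3 are widest without the block.

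The study asked whether types respond differently. For no member did the restoration response pass a test of the difference between types (limma, 0 of 7 also at an unadjusted p under 0.05), and 0.0284% of all genes did. The differences, Type D minus Type V, were -0.45 log2 for Bcl2l1 (95% interval -1.64 to 0.73), 0.15 for Bcl2l2 (-0.59 to 0.89), 0.16 for Mcl1 (-0.33 to 0.66) and -0.64 for Birc3 (-3.07 to 1.79). With the line block these intervals were -1.10 to 0.20, -0.13 to 0.43, -0.20 to 0.53 and -1.21 to -0.07, and the lowest adjusted p, that of Birc3, was 0.172. In that fit 0 of 7 members passed, while of all 14104 genes 466 passed with a positive and 319 with a negative difference.

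The same genes were compared under CsA. Restored + CsA against Control + CsA gave higher Bcl2l1 and Bcl2l2 in 6 of 6 lines and higher Mcl1 in 5 of 6. Bcl2l2 passed in Type D (0.87 ± 0.25 log2, adjusted p = 0.0344) and Bcl2l1 passed in Type V (1.32 ± 0.40 log2, adjusted p = 0.0484), which is 1 of 7 members in each type against 8.89% and 7.71% of all genes. At 1 log2 or more, 5.41% and 4.61% of all genes passed, and again only Bcl2l1 in Type V did among the members. With the line block 4 members passed in each type, against 41.1% and 37.1% of all genes. Those were Bcl2l1, Bcl2l2, Mcl1 and Birc3 in Type D (adjusted p = 0.000696, 2.93e-06, 0.00767 and 0.00144) and Bcl2l1, Bcl2l2, Bcl2 and Birc2 in Type V (adjusted p = 0.000215, 5.65e-05, 0.00133 and 0.0183). Without line 4711-11 the difference of Bcl2l1 in Type V was 0.90 log2 (adjusted p = 0.0305), and it did not pass without 4716-10 or 4716-14 (adjusted p = 0.092 and 0.0638). With each Type D line left out in turn, or 4711-11, Bcl2l2 no longer passed in Type D (adjusted p = 0.126, 0.244, 0.182 and 0.0504).

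Of the individual values under CsA, Bcl2l1 went from 77.7, 88.8 and 84.2 to 167, 219 and 168 TPM in the Type D lines, and in the Type V lines from 23.2, 75.3 and 89.8 to 108.6, 129.8 and 182 TPM. Birc3 went from 10.6, 12.5 and 18.1 to 4.71, 6.46 and 9.73 TPM in the Type D lines, where the groups did not overlap. The Type V lines went from 11.1, 55.3 and 10.6 to 9.56, 65.4 and 8.57 TPM. Bcl2 went from 10.8, 6.65 and 7.03 to 6.51, 3.48 and 4.44 TPM in the Type V lines, again without overlap, whereas the Type D lines held 6.02, 11.0 and 6.49 and then 5.84, 10.4 and 6.82 TPM. These comparisons use other libraries than those without CsA, but from the same lines.

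CsA by itself moved no member past the test. Control + CsA against Control gave log2 differences from -0.17 (Bcl2l2) to 0.10 (Bcl2) in Type D and from -0.25 (Birc3) to 0.09 (Bcl2) in Type V, with 0 of 7 members under an unadjusted p of 0.05 in limma, no adjusted p under 0.786 with the line block, and 0% of all genes passing in both types. Restored + CsA against Restored gave -0.22 (Mcl1) to 0.30 (Bcl2) in Type D and -0.21 (Mcl1) to 0.08 (Birc2) in Type V, again with 0 of 7 members under an unadjusted p of 0.05 and no adjusted p under 0.371 with the block. Over all genes the shares were 0.0142% for Type D and 0% for Type V.

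Mcl1 and Bcl2l2 were nevertheless lower in Restored + CsA than in Restored in 6 of 6 lines. Mcl1 was at 163, 229 and 187 TPM in Type D and at 198, 171 and 255 TPM in Type V, which is 0.725-fold to 0.953-fold of Restored. Bcl2l2 was at 26.5, 37.2 and 24.4 TPM in Type D and at 38.2, 41.1 and 27.3 TPM in Type V, which is 0.846-fold to 0.945-fold. These shifts did not pass the test (adjusted p of 0.412 or more with the block).

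Type D was then compared with Type V within a treatment. No member passed in Control, Restored or Restored + CsA in the fit without a line term (limma; 0, 1 and 0 of 7 members had an unadjusted p under 0.05), against 13.1%, 14.8% and 11.9% of all genes. Birc2 showed the largest differences, -1.43, -1.57 and -1.49 log2 (adjusted p = 0.218, 0.163 and 0.204), and its 3 Type D values lay below all Type V values in each of these treatments. With the cell line as a random term it passed in each (adjusted p = 0.0323, 0.0195 and 0.0289), as 1 of 7 members against 15.6%, 15.9% and 13.7% of all genes. The SE of Birc2 was 0.74 log2 without that term and 0.44 with it, although the number of lines compared was the same. These p-values may therefore be too low. The treatments share the same lines, so the passes are not separate results. Line 4716-10 carried much of the size: without it the differences were -0.66, -0.78 and -0.79 log2 and passed without a line term (adjusted p = 0.0195, 0.00715 and 0.00701), as did 18.8%, 20.5% and 18.5% of all genes, with the remaining Type V lines at 30.4 to 46.8 TPM and the Type D lines at 19.6 to 26.7 TPM. Fibroblast markers were present in Type V lines and nearly absent in Type D lines, as given above, and their part in this difference was not tested.

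Bcl2l1, Bcl2l2, Bcl2, Mcl1 and Xiap differed between types by at most 0.58 log2 in these 3 treatments, and none passed in either fit. Birc3 was lower in Type D by estimate in each (-0.71, -1.35 and -1.29 log2, with SEs of 0.82), with overlapping groups, and passed in neither fit (adjusted p = 0.616, 0.29 and 0.334, and 0.431, 0.102 and 0.131 with the cell line as a random term). Without 4716-10 these differences were -0.11, -0.42 and -0.38 log2. Mcl1 in Control was at 152 to 156 TPM in Type D and at 176 to 189 TPM in Type V, without overlap (-0.26 ± 0.17 log2, adjusted p = 0.339). The median over all genes of the Control comparison was -0.121 log2 as deposited and -0.018 after median-ratio scaling, a shift that reversed the signs of Bcl2 (-0.08) and Xiap (-0.06) there.

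Birc2 and Birc3 lie next to each other on chromosome 9 (GRCm38, 7818227 to 7837064 and 7848699 to 7873186, both on the minus strand), and in 4716-10 both were the highest of all lines under each treatment. Birc2 was at 171, 182, 204 and 189.91 TPM in the 4 libraries of 4716-10, against 19.5 to 46.8 TPM in the 20 libraries of the other lines. Birc3 was at 54.0, 55.3, 75.1 and 65.4 TPM, against 3.55 to 20.4 TPM. Over the 24 libraries Birc2 and Birc3 had a Pearson r of 0.84 on log2(TPM + 1), the highest of the 21 pairs of members, and this description rests on that line.

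The neighbors of these genes were read in RefSeq order, a choice made after the values were seen. From Alkbh8, the first gene of chromosome 9 that reached 5 TPM in any Control library, to Arhgap42 lay 21 such genes over 5.9 Mb (3335231 to 9239027). In 4716-10 Control, 18 of the 21 were above all other lines, with a median of 5.85 times the median of the other lines. In the other treatments the counts were 18, 16 and 18 of 21, with medians of 6.45, 6.98 and 5.41. In any other line at most 2 of the 21 genes were above all others. Named examples are Dync2h1 (18.3 TPM in 4716-10 Control against 2.21 to 4.29 in the other lines), Dcun1d5 (399 against 44.8 to 76.3), Tmem123 (365 against 47.7 to 137) and Yap1, the Hippo pathway coactivator (571 against 103 to 166). The metalloprotease genes Mmp13 (684 against 1.92 to 43.3) and Mmp3 (618 against 1.39 to 35.6) exceeded the others by more.

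Arhgap42 was taken as the end of the stretch after these values were seen. The contrast with the genes that follow was therefore partly set by that choice. Of the 12 genes that follow Arhgap42, none was above all other lines in 4716-10 Control, and their median ratio was 0.81. The nearest of these, Jrkl, was at 6.13 TPM against 7.72 to 10.1 TPM. Over 11645 genes with 5 TPM in any Control library, 5.38% were at least 4 times the median of the other lines in 4716-10, and this share was 3.62% to 5.96% in each of the 6 lines. Of the 33 genes read here, 12 reached that ratio in 4716-10 Control, all of them from Alkbh8 to Arhgap42. The share of all genes that were above all other lines was not counted. The counts by that rule therefore have no background. DNA was not measured in these libraries, and the cause of the raised stretch was not tested.

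**Figure D4:**
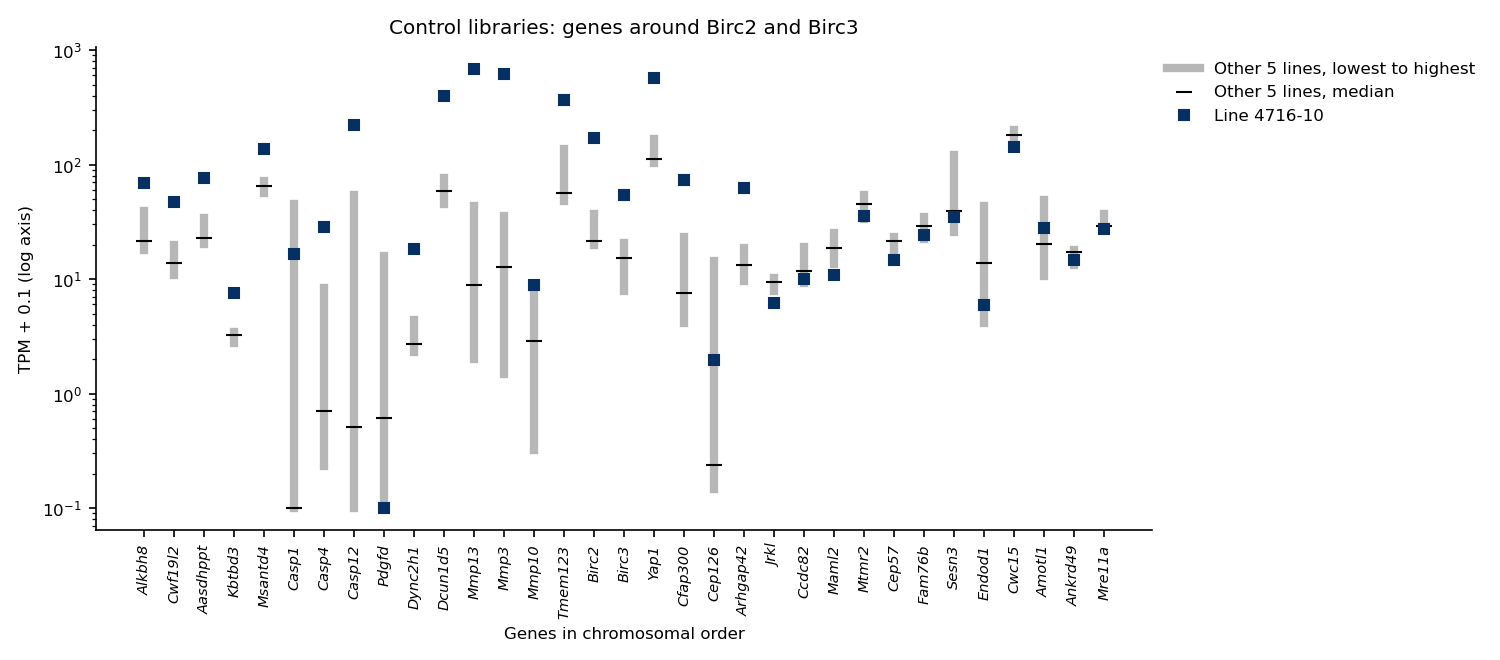
TPM + 0.1 (log axis) in the Control libraries of genes around Birc2 and Birc3 in chromosomal order. Squares are line 4716-10, gray bars run from the lowest to the highest of the other 5 lines and dashes mark their median. In 18 of the 21 genes from Alkbh8 to Arhgap42 the square lies above the bar, and in none of the 12 genes that follow. The end at Arhgap42 was chosen after these values were seen.

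For each member that was tested, the 3 genes with the most similar levels were named by Pearson r over the 24 libraries. Bcl2l1 was most like Rbms1, Orai2 and Zfp385a (r of 0.952, 0.930 and 0.925), Bcl2l2 like Slc39a14, Prpf39 and Utp20 (0.929, 0.921 and 0.915), and Mcl1 like Arhgap21, Map2k4 and Prrc2b (0.923, 0.883 and 0.881). Bcl2 was most like Actr1b, Impa1 and Mrpl28 (0.883, 0.876 and 0.872) and Xiap like Hap1, Ypel1 and Rfx5 (0.871, 0.867 and 0.865). Birc2 was most like its chromosomal neighbors Dync2h1 and Yap1 (0.981 and 0.978), followed by Kif19a (0.978), and Birc3 like Cebpd, Steap4 and Ifnar2 (0.926, 0.919 and 0.903). The 24 libraries share 6 lines and are not independent. Among members, Mcl1 was most like Xiap (0.70) and Bcl2l2 (0.66), and Bcl2 had a negative r with each of the others (-0.45 to -0.04).

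Other genes of cell survival were counted beside the members. Of 11 further survival genes 3 could be tested, and 1 of them, Birc5 (survivin, which also acts in cell division), fell by 3.16 log2 in Type D and by 2.13 log2 in Type V (adjusted p = 8.81e-06 and 0.000738), from means of 67.8 ± 3.38 and 82.2 ± 19.2 TPM (SD, n = 3) to 7.65 ± 4.41 and 17.7 ± 2.78 TPM. Birc6, a giant IAP, was at 19.9 to 52.2 TPM throughout. Bcl2a1a and Bcl2a1c, close copies of Bcl2a1b, were listed at 0 in all libraries and Bcl2a1d in 23 of 24, with 0.225 TPM in the remaining one, so no other library listed any copy above 0. Reads of such copies may be split or dropped by a counting method.

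Among the proteins that survival genes restrain, 1 of 3 effectors rose in both types, Bax (1.17 and 1.29 log2 in Type D and Type V), while Bak1 fell in Type V (-0.85 log2). Of 8 tested BH3-only genes, Pmaip1 and Bbc3 (the genes of Noxa and Puma) rose in Type D (2.78 and 2.15 log2) and Bbc3 rose in Type V (1.36 log2), and none fell without the block. With the line block Bcl2l11 (the gene of Bim; 0.78 log2, adjusted p = 4.17e-05) also rose and Bmf fell (-1.24 log2, adjusted p = 0.00114) in Type D, and Pmaip1 (1.81 log2, adjusted p = 2.34e-05) and Bcl2l11 (0.49 log2, adjusted p = 0.00237) also rose in Type V. By that fit 3 of the 8 were higher and 1 was lower for Type D, and 3 were higher for Type V. These counts were near the shares of all genes with the block (45.3% and 40.6%). Under CsA, Bmf fell in Type D in both fits (-2.04 log2, adjusted p = 0.027, and 1.71e-05 with the block). Of 4 IAP antagonists, Xaf1, which binds Xiap, rose in both types (1.26 and 1.34 log2), and the protease gene Htra2 fell in both (-0.50 and -0.41 log2). With the line block the effector gene Bok (-1.09 and -0.66 log2, adjusted p = 0.000779 and 0.0231) and the IAP antagonist gene Diablo (-0.26 and -0.53 log2, adjusted p = 0.0427 and 0.000533) fell in both types as well. Among the caspase and apoptosome genes, Apaf1 (2.08 and 1.65 log2) and the caspase-8 inhibitor gene Cflar (0.92 and 0.73 log2) rose in both types. The adjusted p of the genes named here that passed without the block, other than that of Bmf, ran from 8.36e-07 to 0.0261. Bak1, Bok, Bcl2l11, Bmf, Diablo, Htra2 and Cflar were named after their values were seen. After restoration, the shares of all genes without the block were 12.9% for Type D and 9.95% for Type V. The counts of these short lists are read against them.

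Of 21 genes of the NF-kB pathway, in which Birc2 and Birc3 act, 2 rose in Type D (Rela by 0.81 and Chuk by 0.59 log2, adjusted p = 0.00412 and 0.0491, named after their values were seen) and none passed in Type V. With the line block 10 were higher and 1 was lower in Type D, and 6 were higher in Type V, against 45.3% and 40.6% of all genes passing in that fit. The share of the list was thus near that of all genes in Type D and below it in Type V. Of 3 tested genes of Mcl1 protein turnover, 1 (Fbxw7, the substrate receptor of a ubiquitin ligase) rose in Type D by 0.57 log2 (adjusted p = 0.0352) and none passed in Type V. Beside these changes Cd68, which macrophages express strongly, went in Type D lines from 9.12 ± 1.10 to 39.5 ± 13.9 TPM, and in Type V lines from 8.46 ± 1.63 to 22.5 ± 7.90 TPM (SD, n = 3). The other tested immune markers Csf1r, S100a8 and Lyz2 were at 0.47, 1.03 and -0.29 log2 in Type D and at -0.21, 0.17 and 0.18 log2 in Type V. They did not pass without the block, and with it only S100a8 in Type D did. Adgre1 stayed at or below 0.0449 TPM in all libraries. In Type V lines the fibroblast marker Col1a2 went from 89.96 ± 76.1 to 8.29 ± 2.91 TPM (-2.86 log2, adjusted p = 0.00594). The other tested fibroblast markers Col1a1, Pdgfrb and Dcn were at -1.46, -1.41 and 0.08 log2. In the same lines the neuroendocrine marker Uchl1 went from 27.3 ± 11.9 to 5.44 ± 1.39 TPM (-2.08 log2, adjusted p = 0.0062). Insm1, Syp and Ncam1, the other tested neuroendocrine markers, were at 0.84, -0.19 and 0.02 log2. None of these others passed without the block, while with it Col1a1 and Pdgfrb passed as lower and Insm1 as higher. The part of these markers in the restoration results was not tested.

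Between types, Xaf1 was lower in Type D in Control, Restored and Restored + CsA (-1.85, -1.94 and -1.62 log2, adjusted p = 1.92e-05, 1.04e-05 and 8.39e-05), as was Bid, the BH3-only gene cleaved by caspase-8 (-1.5, -1.46 and -1.30 log2). Naip2, an IAP-family gene of the inflammasome, was higher in Type D (1.95, 1.5 and 1.51 log2). In Restored, 1 of the 3 tested further survival genes was called lower in Type D. Of the 3 effectors, 1 was called higher in Type D in Control and in Restored + CsA, and 1 passed as lower in Control. Map3k14, the kinase gene of the noncanonical NF-kB pathway whose protein Birc2 and Birc3 mark for degradation, was lower in Type D in each treatment (-1.11, -0.89 and -1.18 log2, adjusted p = 0.0108, 0.0366 and 0.00845). Of the 21 NF-kB genes, 0, 1 and 0 passed as higher in Type D and 1, 2 and 3 as lower in these treatments without the block. Of all genes, 13.1%, 14.8% and 11.9% passed in these comparisons.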

How the data were processed

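The authors deposited 1 table of TPM values (transcript abundances scaled for length and to the same total in every library) for 24 libraries, which was used as deposited. The study's methods describe stranded mRNA libraries read single-end, and name kallisto or HISAT2 for alignment without saying which made this table; mm10 and GRCm39 are both named as its build, so the build is uncertain. Positions and promoters come from GENCODE M21 and RefSeq on GRCm38 and were matched by symbol.

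Values were analysed as log2(TPM + 1) with a pseudocount of 1. Genes of at least 1 TPM in at least 3 libraries were tested (14104 of 25239) with limma 3.58.1 in R 4.3.3 (moderated by eBayes with a trend), fitting the 8 group means with 16 residual degrees of freedom. All tests were two-sided, and p-values were adjusted by Benjamini-Hochberg over all genes tested within each of 12 comparisons. A gene passed at an adjusted p under 0.05, and was called if it also reached 1 log2. The script was tested on simulated data. Figures were drawn with matplotlib 3.10.9. The members and gene lists were chosen with earlier results of these data known. All 8 members are named, with the 3 most similar genes of each and at most the 3 largest called genes per list and comparison.

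The labels give 4 libraries to every cell line, which pairs them across groups. After removal of group means, libraries of the same line had r of 0.599 to 0.929 (36 pairs) and different lines of a type -0.727 to 0.0438. Lines are the replicates. The fit without a block treated the 24 libraries as independent, so its p-values measure the spread between lines and leave the pairing unused. With the line block, p-values of the treatment comparisons measure how far the response varies from line to line. The labels do not say whether lines with the same name prefix came from the same mouse. The alternatives tried were another pseudocount (0.1), a TPM minimum of 5 or none, quantile normalization, median-ratio scaling, a fit to the compared groups only, each line left out in turn, and the cell line as a replicate block (a random term between types). Of the listed genes, 2 are not reported here.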

Additional observations from a re-analysis of the deposited data

Results flagged for a closer look

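When CsA was added to restored cells, Bcl2l1 was higher in all 3 Type D lines (167, 219 and 168 TPM against 149.8, 197 and 146.6) and lower in all 3 Type V lines (108.6, 129.8 and 182 TPM against 121.8, 132 and 209.7), so that the log2 differences of the types stood 0.30 apart (0.17 in Type D and -0.13 in Type V). It was flagged because every line of a type moved one way and every line of the other type the opposite way. The difference was not tested, and neither response passed its own test (limma, adjusted p = 1 in both, and 0.833 and 1 with the line block).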

How the results depend on the processing

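With 3 lines per group and no line block, several members that passed lay close to the threshold. TPM has no depth, so precision could not be set from counts. Over the 13 alternatives of each comparison, Bcl2l1, Bcl2l2 and Mcl1 stayed above 0 in all 4 restoration comparisons. Their log2 differences ran from 0.71 to 0.96 (Bcl2l1, Type D), 0.997 to 1.58 (Bcl2l1, Type V), 0.75 to 0.93 (Bcl2l2, Type D), 0.68 to 0.77 (Bcl2l2, Type V), 0.43 to 0.64 (Mcl1, Type D) and 0.22 to 0.51 (Mcl1, Type V). Adjusted p-values over the same alternatives ran from 0.00433 to 0.581, 0.000193 to 0.226, 1.87e-06 to 0.157, 1.52e-05 to 0.246, 0.0022 to 0.268 and 0.0238 to 0.599. Of the results for single members, 996 kept their direction and side of the threshold, 36 lost and 22 gained a passing test, and 38 changed sign.

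The number of members that passed in Type D (2) was 1 with no filter, with quantile normalization and with median-ratio scaling, 4 with the replicate block, and 0 to 2 with a line left out. In Type V (1, also past 1 log2) it was 0 with no filter, with median-ratio scaling and with the compared groups only, 5 with the replicate block, and 0 to 1 with a line left out; the count past 1 log2 was 0 in the same 3 alternatives. Under CsA in Type D (1, none past 1 log2) it was 0 with no filter, quantile normalization and median-ratio scaling, 4 with the replicate block, and 0 to 1 with a line left out; 1 member was past 1 log2 with the compared groups only, with the block, and without Type V replicate 1. Under CsA in Type V (1, also past 1 log2) it was 0 with no filter, quantile normalization, median-ratio scaling and the compared groups only, 4 with the replicate block, and 0 to 1 with a line left out. Between types (0) it was 1 with the line as a random replicate block in Control, Restored and Restored + CsA, in each case also past 1 log2, and 0 to 1 with a line left out. The cause of these moves was not tested, beyond that a fit to fewer samples has fewer degrees of freedom. The block changed no other count.

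Sign changes were confined to differences that passed in no fit concerned. Birc2 after restoration in Type D was -0.022 with quantile normalization and -0.009 with median-ratio scaling. Xiap under CsA in Type D was -0.029 and -0.059 in these, and -0.085 to 0.181 with a line left out. Birc3 for CsA alone in Type D was 0.00 with a pseudocount of 0.1, 0.010 and 0.020 in the same scalings, and -0.205 to 0.115 with a line left out. Bcl2l2 for CsA alone in Type V was 0.008 with quantile normalization and -0.035 to 0.018 with a line left out. For the types in Control, Bcl2 was 0.071 and 0.025 in these scalings and -0.313 to 0.218 with a line left out, and Xiap was 0.033, 0.057 and -0.175 to 0.110. With a line left out, Birc3 ran from -0.520 to 0.062 after restoration in Type V and from -0.236 to 0.019 under CsA, and Bcl2 from -0.055 to 0.013 under CsA in Type D. For CsA alone in Type D, Bcl2 ran from -0.046 to 0.257, Xiap from -0.106 to 0.147 and Birc2 from -0.038 to 0.154, and in Type V Xiap ran from -0.012 to 0.158 and Birc2 from -0.139 to 0.058. For CsA added to restored cells, Xiap ran from -0.086 to 0.013 and Birc3 from -0.280 to 0.038 in Type D, and Bcl2 from -0.044 to 0.085 in Type V. Between types, Bcl2l1 in Restored ran from -0.030 to 0.359, and Mcl1 from -0.261 to 0.077 in Restored and -0.233 to 0.053 in Restored + CsA. The cause was not tested.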
